A study of Mus musculus with 12 samples.

Results

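The 10 genes described here encode core parts of the circadian clock. They are Arntl, Clock, Npas2, Per1, Per2, Per3, Cry1, Cry2, Dbp and Nr1d1, taken by symbol from the expression tables of a mouse denervation study, and all 10 stood among the 25094 genes that each table lists. The study sequenced poly(A) RNA of a calf muscle, the gastrocnemius, of wild-type males of 2 inbred strains, C57BL/6 and BALB/c. The right sciatic nerve had been cut and its ends turned back and sutured to muscle, and the tissue was taken 2 weeks later. The left leg, which the labels call healthy, was the comparison. A sham operation also stands in the protocol, without a word on which legs, if any, received it. This gave 4 groups of 3 libraries: C57BL/6 left, C57BL/6 right, BALB/c left and BALB/c right. The labels give neither the age of the mice nor the hour at which tissue was taken. Separate mice are not named for the 3 libraries of each group, so p-values reflect only the spread among these libraries, which may be technical.

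The clock is a transcriptional feedback loop that runs in nearly every cell with a period of about a day. BMAL1, the product of Arntl, pairs with CLOCK or NPAS2 and binds E-boxes in the promoters of the Per and Cry genes, of Dbp and of Nr1d1. PER and CRY proteins return to the nucleus and block BMAL1 and CLOCK, while REV-ERB alpha, the product of Nr1d1, represses Arntl at sites that the ROR proteins also bind, and DBP activates genes with D-boxes. In skeletal muscle the loop times genes of glucose and fat use, and activity and feeding can reset it. Arntl normally peaks at a time of day when Dbp and Nr1d1 are low, so levels of these genes depend on the hour of sampling.

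The control elements of the loop can be read in the promoters of some members, and the 4 below are shown because each carries a match to a clock element, in capitals. RefSeq promoters (GRCm38.p6, 300 bases, 250 before and 50 after the start) were found for 9 of the 10 members, 13 promoters in all. 4 elements were searched on both strands: the E-box CACGTG, the D-box TTATGTAA or TTACGTAA, the core of the ROR and REV-ERB element TAGGTCA or TGGGTCA, and the cAMP response element TGACGTCA.
Arntl, second listed promoter, chr7:113207261-113207560, plus strand, ROR and REV-ERB core in capitals: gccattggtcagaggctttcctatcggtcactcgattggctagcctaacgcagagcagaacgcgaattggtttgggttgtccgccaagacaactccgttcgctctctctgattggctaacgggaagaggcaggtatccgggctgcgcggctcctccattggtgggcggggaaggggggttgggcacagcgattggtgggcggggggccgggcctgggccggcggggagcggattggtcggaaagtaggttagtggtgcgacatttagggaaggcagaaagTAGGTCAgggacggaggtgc
Per1, chr11:69098699-69098998, plus strand, E-box in capitals: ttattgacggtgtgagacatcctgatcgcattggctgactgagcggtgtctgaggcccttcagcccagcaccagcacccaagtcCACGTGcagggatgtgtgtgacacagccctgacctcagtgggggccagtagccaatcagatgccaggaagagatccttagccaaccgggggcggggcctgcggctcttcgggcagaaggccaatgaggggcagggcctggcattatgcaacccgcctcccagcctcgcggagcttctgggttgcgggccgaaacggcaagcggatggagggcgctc
Per3, chr4:151044616-151044915, minus strand, D-boxes in capitals: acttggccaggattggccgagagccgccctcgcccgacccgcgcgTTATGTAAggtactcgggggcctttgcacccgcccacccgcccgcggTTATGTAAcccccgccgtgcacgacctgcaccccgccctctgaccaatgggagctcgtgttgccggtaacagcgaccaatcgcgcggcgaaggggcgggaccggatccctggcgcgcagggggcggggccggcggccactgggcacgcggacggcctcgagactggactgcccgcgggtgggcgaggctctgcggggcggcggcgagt
Cry1, chr10:85185005-85185304, minus strand, E-box in capitals: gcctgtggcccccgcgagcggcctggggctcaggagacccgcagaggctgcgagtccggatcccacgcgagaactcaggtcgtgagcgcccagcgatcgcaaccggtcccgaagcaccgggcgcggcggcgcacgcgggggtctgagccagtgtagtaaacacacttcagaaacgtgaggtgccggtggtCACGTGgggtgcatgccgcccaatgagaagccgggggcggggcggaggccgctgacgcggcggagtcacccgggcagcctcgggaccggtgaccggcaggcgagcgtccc
The E-box began 166 bases before the start in this Per1 promoter and 60 bases before it in Cry1. Of the 9 members, 2 held the E-box, 1 a D-box and 1 the ROR and REV-ERB core. No E-box stood in these windows for Per3, Cry2, Dbp or Nr1d1, or in the other listed Per1 promoter. Among 32851 mouse promoters of this length, 7.15% held the E-box, 1.06% a D-box, 6.45% the ROR and REV-ERB core and 1.79% the cAMP response element, which matched in no member. Per3 held 2 D-boxes, and 0.0244% of all promoters held 2 or more. A match describes the letters only.

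The values are RPKM, reads divided by transcript length and library size, so levels can be compared between genes. Each library was scaled by 18132620 to 19282880 reads. A change is the right mean minus the left mean of log2(RPKM + 0.5), tested with limma and Benjamini-Hochberg adjustment over all tested genes; calls need an adjusted p under 0.05. This scale has a strong common shift: the median tested gene changed by 0.52 in C57BL/6 and by 0.38 in BALB/c. The 20 most abundant genes of a library held 44.5% to 57.7% of the summed RPKM in the left legs and 30.7% to 37.5% in the right legs. Changes of the members are therefore also given after rescaling by median-of-ratios factors, which brings the median tested gene to 0.02 in either strain. BALB/c right library 2 stood apart, as it was the lowest of its leg for 10 of the 10 members, against 52.8% of all tested genes, and after rescaling for 9 of the 10, against 38%. BALB/c results are therefore given with and without it where they turn on it.

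**Figure D1:**
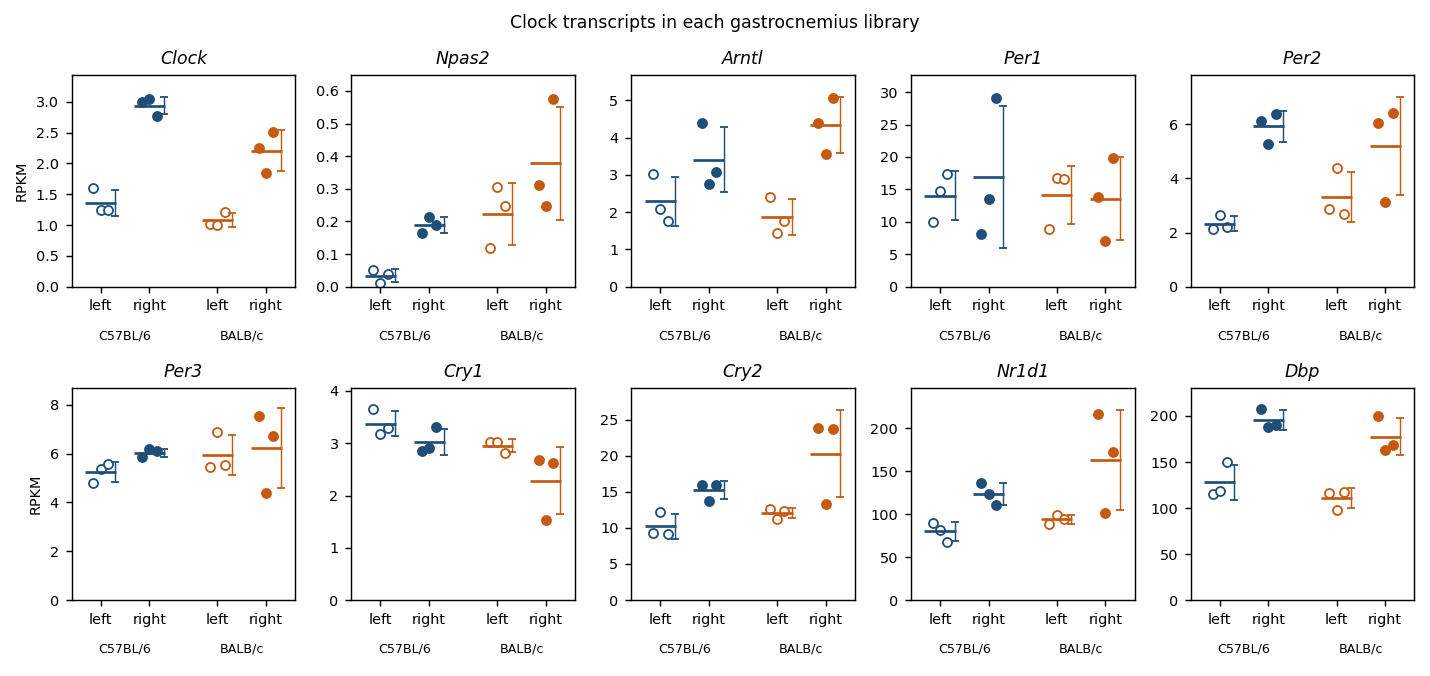
RPKM (vertical axes, each from 0) of the 10 clock genes in every library, by leg and strain. Open points are left legs, filled points right legs, bars the mean of 3 libraries and error bars the SD; Clock, Dbp, Nr1d1 and Cry2 stand above the left legs in all 6 right libraries.

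Among the activators, Clock was higher in the denervated leg of both strains. Clock (chr5:76638893-76732527 in mm9, minus strand) measured 1.61, 1.24 and 1.24 RPKM in the C57BL/6 left libraries and 2.999, 3.04 and 2.77 in the right libraries. BALB/c libraries had 1.02, 1.01 and 1.21 on the left and 2.25, 1.85 and 2.52 on the right. The legs did not overlap in either strain, with means 2.15-fold and 2.04-fold higher on the right. Clock rose by 0.89 ± 0.11 (SE) in C57BL/6 (adjusted p = 0.000208) and by 0.77 ± 0.16 in BALB/c (adjusted p = 0.00497). After rescaling the changes were 0.31 (adjusted p = 0.0434) and 0.37 (adjusted p = 0.0613), so the C57BL/6 call held and the BALB/c call did not.

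Arntl, which encodes the obligate partner of CLOCK (chr7:120350979-120457640 in mm9, plus strand), measured 3.03, 2.08 and 1.76 RPKM on the left and 4.39, 2.76 and 3.08 on the right in C57BL/6. These legs overlapped, since left library 1 exceeded right library 2. The BALB/c values were 2.41, 1.45 and 1.76 on the left against 4.39, 3.56 and 5.05 on the right. Here every right library stood above every left library, with means 2.32-fold apart. Arntl rose by 1.04 ± 0.20 in BALB/c (adjusted p = 0.00359; 1.16 and 0.00509 without right library 2). It changed by 0.49 ± 0.21 in C57BL/6 (adjusted p = 0.0649), a call that was gained without C57BL/6 left library 1 (0.68, adjusted p = 0.0226). After rescaling the values were 0.59 (adjusted p = 0.0585) in BALB/c and -0.11 (adjusted p = 0.672) in C57BL/6.

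Npas2, a relative of Clock known mainly from the forebrain (chr1:39251117-39420085 in mm9, plus strand), was close to the limit of detection. It had 4, 1 and 3 reads in the C57BL/6 left libraries and 13, 17 and 15 in the right libraries. Summed, 45 reads against 8 gave a ratio of 5.57, with an exact 95% Poisson interval of 2.60 to 13.7 that covers counting error only. Its C57BL/6 left mean of 0.034 RPKM lay below the filter of 0.1 RPKM, which it passed only through the right mean of 0.190, so it had to differ to be tested at all. The fitted change was 0.37 ± 0.09 on the log2(RPKM + 0.5) scale, which compresses low values (adjusted p = 0.00907). In BALB/c the reads were 9, 23 and 19 on the left and 25, 19 and 46 on the right, which overlapped (0.27 ± 0.18, adjusted p = 0.242). After rescaling the changes were 0.25 (adjusted p = 0.0541) and 0.09 (adjusted p = 0.690).

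Of the period genes, whose proteins carry the delayed inhibition, Per2 showed the largest C57BL/6 change of the 9 members with a mean above 1 RPKM. Per2 (chr1:93312559-93355905 in mm9, minus strand) measured 2.15, 2.64 and 2.21 RPKM on the left and 6.10, 5.28 and 6.37 on the right. The means were 2.54-fold apart and the legs did not overlap. Per2 rose by 1.18 ± 0.11 (adjusted p = 5.13e-05), and by 0.55 after rescaling (adjusted p = 0.00539). In BALB/c it measured 2.88, 4.39 and 2.70 on the left and 6.04, 3.11 and 6.42 on the right. Right libraries 1 and 3 stood above all left libraries and right library 2 did not. The change was 0.54 ± 0.28 (adjusted p = 0.149) with that library and 0.84 (adjusted p = 0.0183) without it, and 0.08 after rescaling (adjusted p = 0.813).

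Per1, which encodes the period protein that also answers quickly to hormones and cAMP (chr11:68913654-68923459 in mm9, plus strand), measured 9.94, 14.7 and 17.4 RPKM on the left and 8.09, 13.5 and 29.1 on the right in C57BL/6. The BALB/c values were 8.93, 16.7 and 16.7 on the left and 13.8, 7.08 and 19.8 on the right. The legs overlapped in both strains, and the right libraries differed among themselves by 3.60-fold in C57BL/6 and 2.80-fold in BALB/c. Its within-group SD of 0.697 (log2) in C57BL/6 was above that of 99.0% of genes averaging 1 RPKM or more, whose median SD was 0.126. In BALB/c its SD of 0.621 was above that of 96.9% of such genes, whose median was 0.217. The changes were 0.11 ± 0.43 (adjusted p = 0.836) and -0.11 ± 0.38 (adjusted p = 0.822). These errors compare with 0.11 and 0.16 for Clock. After rescaling the values were -0.59 (adjusted p = 0.277) and -0.62 (adjusted p = 0.161).

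Per3 (chr4:150377764-150418774 in mm9, minus strand), the third period gene, measured 4.81, 5.37 and 5.59 RPKM on the left and 5.85, 6.17 and 6.09 on the right in C57BL/6. Those legs did not overlap but lay only 1.15-fold apart. In BALB/c it measured 5.43, 6.90 and 5.54 on the left and 7.56, 4.38 and 6.74 on the right, which overlapped. The changes were 0.19 ± 0.08 (adjusted p = 0.0763) and 0.03 ± 0.21 (adjusted p = 0.902). Per3 stood 0.34 below the median tested gene in each strain, and after rescaling it was lower on the right, by -0.48 in C57BL/6 (adjusted p = 0.00224) and -0.45 in BALB/c (adjusted p = 0.0606). The tables list different transcripts of Per3 for the strains, so its levels were not set across them.

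The cryptochromes, the strongest repressors of CLOCK and BMAL1, did not move together. Cry2 (chr2:92243804-92274226 in mm9, minus strand) measured 9.24, 12.2 and 9.19 RPKM on the left and 16.0, 13.8 and 16.0 on the right in C57BL/6. In BALB/c the values were 12.6, 11.2 and 12.4 on the left and 23.8, 13.3 and 23.7 on the right. All right libraries exceeded all left libraries of their strain, with BALB/c right library 2 nearest to them. As deposited, Cry2 rose by 0.56 ± 0.13 in C57BL/6 (adjusted p = 0.00478) and 0.68 ± 0.23 in BALB/c (adjusted p = 0.0358), but after rescaling the values were -0.13 (adjusted p = 0.436) and 0.17 (adjusted p = 0.527). Without BALB/c right library 2 the BALB/c change was 0.95 (adjusted p = 0.00106), and without any of the other 5 BALB/c libraries its adjusted p lay above 0.05, for example 0.132 without right library 3.

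Cry1 (chr10:84594445-84647799 in mm9, minus strand) measured 3.65, 3.18 and 3.29 RPKM on the left and 2.86, 2.91 and 3.31 on the right in C57BL/6. The BALB/c libraries gave 3.03, 3.01 and 2.82 on the left and 2.69, 1.54 and 2.63 on the right. The legs overlapped in C57BL/6, and in BALB/c every right library lay below every left library. As deposited the changes were -0.14 ± 0.09 (adjusted p = 0.230) and -0.34 ± 0.20 (adjusted p = 0.201), the latter -0.13 without BALB/c right library 2 (adjusted p = 0.421). Cry1 stood 0.66 and 0.72 below the median tested gene, and after rescaling it fell in both strains, by -0.76 (adjusted p = 0.000505) and -0.78 (adjusted p = 0.00860).

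Dbp and Nr1d1, direct targets of BMAL1 and CLOCK, were the most abundant members in all 4 groups. Dbp (chr7:52960617-52965573 in mm9, plus strand) measured 115, 119 and 150 RPKM on the left and 208, 188 and 190 on the right in C57BL/6. BALB/c libraries gave 117, 98.0 and 117 on the left and 200, 164 and 169 on the right. No legs overlapped, and the means were 1.53-fold and 1.61-fold apart. Dbp rose by 0.62 ± 0.11 (adjusted p = 0.00174) and 0.68 ± 0.15 (adjusted p = 0.00586) as deposited, and after rescaling the values were -0.10 (adjusted p = 0.485) and 0.16 (adjusted p = 0.515).

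Nr1d1 (chr11:98629246-98636691 in mm9, minus strand) measured 90.2, 81.9 and 68.1 RPKM on the left and 136, 124 and 110 on the right in C57BL/6. BALB/c libraries gave 88.8, 99.0 and 94.2 on the left and 216, 101 and 172 on the right. BALB/c right library 2 lay just above the highest left library and the other two were far above it. Nr1d1 rose by 0.63 ± 0.12 (adjusted p = 0.00268) and 0.72 ± 0.26 (adjusted p = 0.0482) as deposited, and the rescaled values were -0.09 (adjusted p = 0.558) and 0.20 (adjusted p = 0.517). Without BALB/c right library 2 its BALB/c change was 1.03 (adjusted p = 0.00198), while without any other BALB/c library it was no longer called (for example adjusted p = 0.126 without left library 1).

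**Figure D2:**
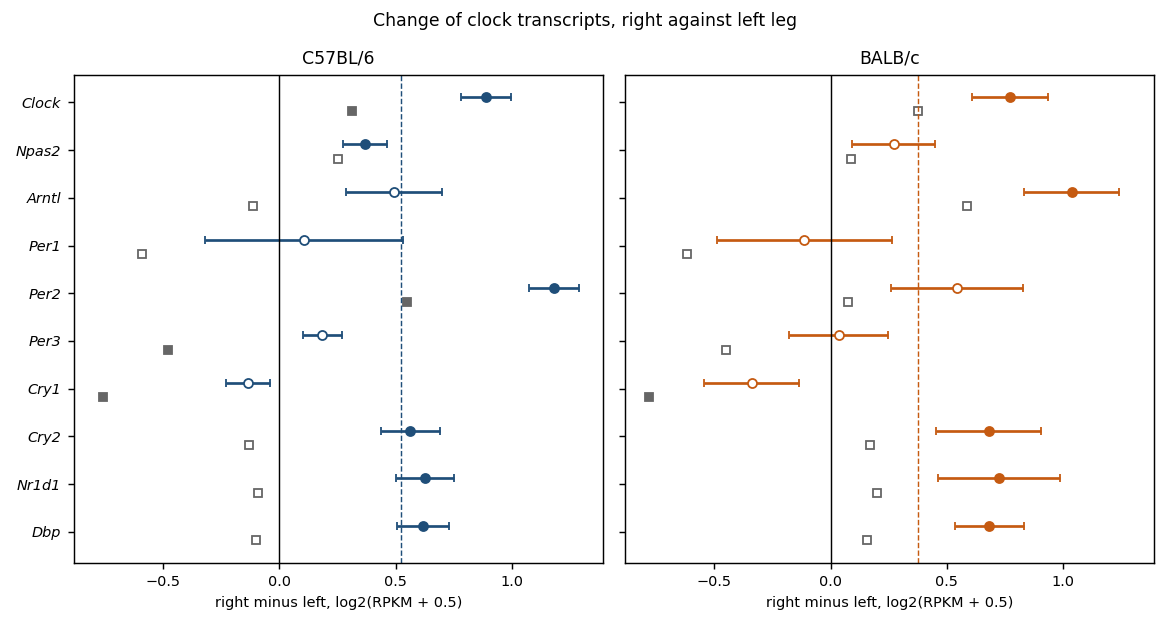
Change of each clock gene, right minus left, log2(RPKM + 0.5), in C57BL/6 and BALB/c. Circles are the deposited values with SE bars (filled, adjusted p under 0.05), grey squares the rescaled values (filled, called), and the dashed line is the median tested gene, 0.52 and 0.38; Cry1 lies farthest below that line in both strains.

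Counting the members, 6 of 10 were called higher in C57BL/6 (Clock, Cry2, Dbp, Npas2, Nr1d1 and Per2) and none lower, where limma called 72.2% of all tested genes, 63.6% higher and 8.56% lower. A filter of 1 RPKM leaves out Npas2, which had passed through its right legs alone; 5 of 9 members then rose, against 71.1% of the genes tested there. In BALB/c 5 of 10 rose (Arntl, Clock, Cry2, Dbp and Nr1d1) and none fell, where 50.2% of tested genes were called, 42.5% higher and 7.67% lower. In both strains the share of members that rose was near the share of all tested genes that did. After rescaling, 2 members rose (Clock, Per2) and 2 fell (Cry1, Per3) in C57BL/6, where 54.6% of tested genes were called (28.2% higher, 26.4% lower). In BALB/c none rose and Cry1 fell, where 40.8% were called (21.8% higher, 19% lower). Right stood above left without overlap in 7 of 10 members in C57BL/6 (66.2% of tested genes) and in 5 of 10 in BALB/c (48.1%), and below it in none and 1 (9.57% and 10.4%). The median change of the members was 0.53 in C57BL/6, which is 0.01 above the median tested gene, and 0.61 in BALB/c, which is 0.23 above it. These counts were read without BALB/c right library 2 as well: 6 members then rose, adding Per2, where 45.7% of all tested genes were higher. Without any of the other 5 BALB/c libraries 3 rose, Arntl, Clock and Dbp, where 34.2% to 40.6% of all tested genes were higher.

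In abundance the genes kept a common order. By group means Dbp led in all 4 groups, followed by Nr1d1, and Npas2 was last. In the C57BL/6 left legs Per1 and Cry2 overlapped in level, as did Per2 and Arntl. The place of Cry1 differed between the C57BL/6 legs. Cry1 stood above Per2 and Arntl in every left library and below Per2 in every right library. Against Arntl the right legs overlapped. The Cry1 mean was lower there, 3.03 against 3.41 RPKM, but Cry1 was the higher of the 2 in right libraries 2 and 3. In the BALB/c right legs Dbp and Nr1d1 overlapped. There Nr1d1 exceeded Dbp in libraries 1 and 3, at 216 and 172 against 200 and 169 RPKM. It lay below Dbp in right library 2, at 101 against 164 RPKM, so the order of their means rests on that library. Cry2 stood above Per1 in the mean of these legs.

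The change of no member differed between strains by the test of that difference, where 6.09% of tested genes were called (1.76% higher in BALB/c, 4.33% lower), nor after rescaling, where 7.2% were (3.71% and 3.49%). With the C57BL/6 change subtracted from that in BALB/c, the difference was -0.64 ± 0.33 for Per2 (unadjusted p = 0.0780, adjusted p = 0.258) and 0.54 ± 0.31 for Arntl (unadjusted p = 0.101, adjusted p = 0.297). For Clock it was -0.12 ± 0.18, for Dbp 0.06 ± 0.18 and for Cry1 -0.20 ± 0.23. For the other 5 the adjusted p lay between 0.724 and 0.874. A missed threshold does not show that the strains respond alike.

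Some members share part of their listed span, introns included, with a neighbour on the other strand. Exon reads were counted without regard to strand, so reads in shared exons cannot be assigned. How much of each shared span is exon was not measured. Nr1d1 shares 1075 bases with Thra, the thyroid hormone receptor alpha gene, and Dbp shares 741 with Sphk2, a sphingosine kinase gene. Cry2 shares 23417 bases of span with the long non-coding gene D930015M05Rik, but its counted transcript has only 3987 bases. Thra did not follow Nr1d1: its mean was 30.0 ± 1.54 RPKM (SD, n = 3) on the left and 24.8 ± 2.99 on the right in C57BL/6, where it fell by -0.28 ± 0.10 (adjusted p = 0.0347, above 0.05 without left library 2 or 3 or right library 2 or 3), and it changed by -0.03 ± 0.18 in BALB/c (adjusted p = 0.897). D930015M05Rik, at 1.49 ± 0.305 RPKM on the C57BL/6 left, changed by 0.10 ± 0.19 (adjusted p = 0.661) and by -0.28 ± 0.33 in BALB/c (adjusted p = 0.518). Sphk2 rose in both strains as deposited, by 0.61 ± 0.12 (adjusted p = 0.00242) and 0.82 ± 0.13 (adjusted p = 0.00133), and after rescaling the values were -0.10 (adjusted p = 0.511) and 0.30 (adjusted p = 0.181). The ratio of Dbp to Sphk2 was 3.75 in each C57BL/6 leg. In BALB/c it was 3.32 ± 0.0499 (SD, n = 3) on the left and 2.99 ± 0.139 on the right, with every right library below every left library.

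Ratios of members within a library do not depend on the scaling of the library, and show the unequal changes directly. These pairs were picked after the values were seen, so the ratios are a description. The ratio of Cry2 to Cry1 was 2.53, 3.84 and 2.79 in the C57BL/6 left libraries and 5.59, 4.72 and 4.83 in the right libraries, a 1.65-fold difference of the means. In BALB/c it was 4.15, 3.72 and 4.40 on the left and 8.87, 8.63 and 9.02 on the right, 2.16-fold apart, and there right library 2 lay close to the other right libraries. The ratio did not overlap between the legs of either strain, and stayed between 1.52-fold and 2.25-fold when any single library was left out. Per2 to Per3 moved from 0.445 ± 0.0482 (SD, n = 3) to 0.982 ± 0.109 in C57BL/6 and from 0.551 ± 0.0769 to 0.821 ± 0.123 in BALB/c. Clock to Cry1, an activator against a repressor, moved from 0.403 ± 0.0330 to 0.976 ± 0.121 and from 0.367 ± 0.0553 to 0.999 ± 0.185, so the 2 genes came to nearly equal RPKM in the right legs. None of these 3 ratios overlapped between legs in either strain.

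**Figure D3:**
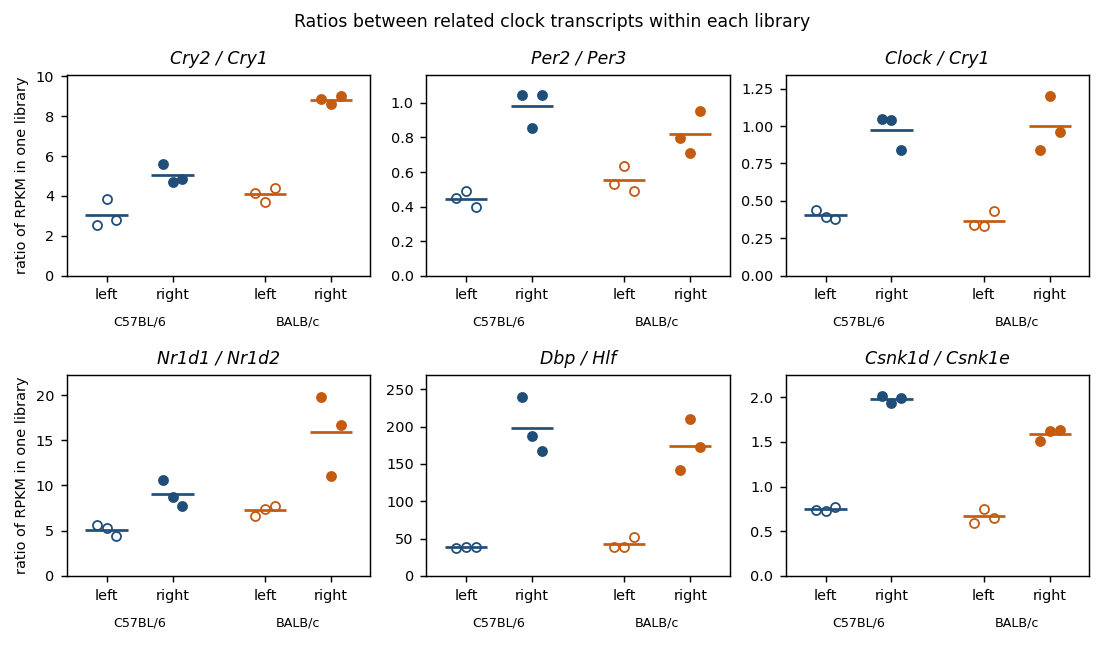
Ratios of RPKM within a library for 6 pairs of clock genes (vertical axes from 0), by leg and strain; open points are left legs, filled points right legs, and bars the mean of 3 libraries. In all 6 pairs every right library lies above every left library of its strain, with Dbp to Hlf 5.19-fold and 4.07-fold apart. The pairs were picked after the values were seen, so this is a description of them only.

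The members were also set against their paralogs. Nr1d1 to Nr1d2, which encodes REV-ERB beta, went from 5.10 ± 0.610 to 9.01 ± 1.44 in C57BL/6 and from 7.25 ± 0.603 to 15.9 ± 4.44 in BALB/c. Nr1d2 itself changed by -0.18 ± 0.07 (adjusted p = 0.0508) and -0.35 ± 0.13 (adjusted p = 0.0539), and was called lower after rescaling, at -0.88 and -0.85 (adjusted p = 4.52e-05 and 0.00174). Hlf, which encodes a D-box factor of the same family as DBP, fell from 3.35 ± 0.415 to 1.00 ± 0.133 RPKM in C57BL/6 (-1.36 ± 0.12, adjusted p = 3.85e-05) and from 2.62 ± 0.415 to 1.06 ± 0.326 in BALB/c (-1.01 ± 0.20, adjusted p = 0.00361), and fell after rescaling too, by -1.90 and -1.41. Dbp to Hlf thus went from 38.1 ± 1.20 to 198 ± 37.0 and from 42.9 ± 8.28 to 175 ± 34.4. Tef, which encodes the other factor of that family, rose by 0.46 ± 0.06 in C57BL/6 as deposited (adjusted p = 0.000437) but was called lower after rescaling, at -0.25 (adjusted p = 0.0170). It changed by 0.39 ± 0.18 in BALB/c (adjusted p = 0.0981).

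Of 19 further clock components, 17 passed the filter, with Rorb and Fbxl21 below it. In C57BL/6 3 rose and 7 fell, with a median change of -0.18, and in BALB/c 3 rose and 3 fell, with a median of -0.10, against medians of 0.52 and 0.38 for all tested genes. As deposited, 63.6% of all tested genes were higher and 8.56% lower in C57BL/6, and 42.5% and 7.67% in BALB/c. After rescaling 14 and 8 components fell and none rose, where 26.4% and 19% of all tested genes were lower and 28.2% and 21.8% higher. Csnk1d, a kinase that marks PER proteins for turnover, rose by 0.74 ± 0.07 (adjusted p = 4.37e-05) and 0.80 ± 0.17 (adjusted p = 0.00556) as deposited, and neither call held after rescaling, at 0.03 (adjusted p = 0.714) and 0.29 (adjusted p = 0.141). Its paralog Csnk1e fell by -0.64 ± 0.07 in C57BL/6 (adjusted p = 0.000106) and changed by -0.42 ± 0.17 in BALB/c (adjusted p = 0.0649). The ratio of Csnk1d to Csnk1e went from 0.744 ± 0.0199 to 1.98 ± 0.0396 in C57BL/6 and from 0.667 ± 0.0796 to 1.59 ± 0.0668 in BALB/c, so the more abundant kinase differed between the legs.

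Among the other called components, Bhlhe41, which encodes the repressor DEC2, fell in both strains (-0.38 ± 0.11, adjusted p = 0.0133, and -0.54 ± 0.17, adjusted p = 0.0295). Nfil3, which encodes a repressor at D-boxes, fell in C57BL/6 (-0.65 ± 0.17, adjusted p = 0.00925) and changed by -0.87 ± 0.41 in BALB/c (adjusted p = 0.114). Rora, which encodes an activator of Arntl, rose in BALB/c as deposited (0.55 ± 0.18, adjusted p = 0.0372) and was 0.08 there after rescaling (adjusted p = 0.730). In C57BL/6 it changed by -0.17 ± 0.09 (adjusted p = 0.116) and was called lower after rescaling, at -0.83 (adjusted p = 0.000221). Its strain difference was 0.72 ± 0.20 as deposited (adjusted p = 0.0562) and was called after rescaling, at 0.92 (adjusted p = 0.0223). Btrc, part of a ubiquitin ligase that clears PER proteins, rose in both strains as deposited (0.35 and 0.45, adjusted p = 0.00911 and 0.0269). After rescaling it was called lower in C57BL/6, at -0.31 (adjusted p = 0.0206), and was -0.04 in BALB/c (adjusted p = 0.832). The kinase gene Gsk3b fell by -0.28 ± 0.10 in C57BL/6 (adjusted p = 0.0337), and Arntl2, a paralog of Arntl below 0.5 RPKM in mean, fell by -0.38 ± 0.14 in BALB/c (adjusted p = 0.0469). Several of these calls changed with the libraries used. With 1 library left out at a time, the BALB/c calls were lost in 6 of 6 fits for Arntl2, and in 5 of 6 for Bhlhe41 (kept without left library 2), Btrc and Rora (both kept without right library 2). In C57BL/6 the call of Gsk3b was lost in 4 of 6, without left library 1 or 2 or right library 1 or 3, and that of Bhlhe41 without right library 2 (adjusted p = 0.0505).

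**Figure D4:**
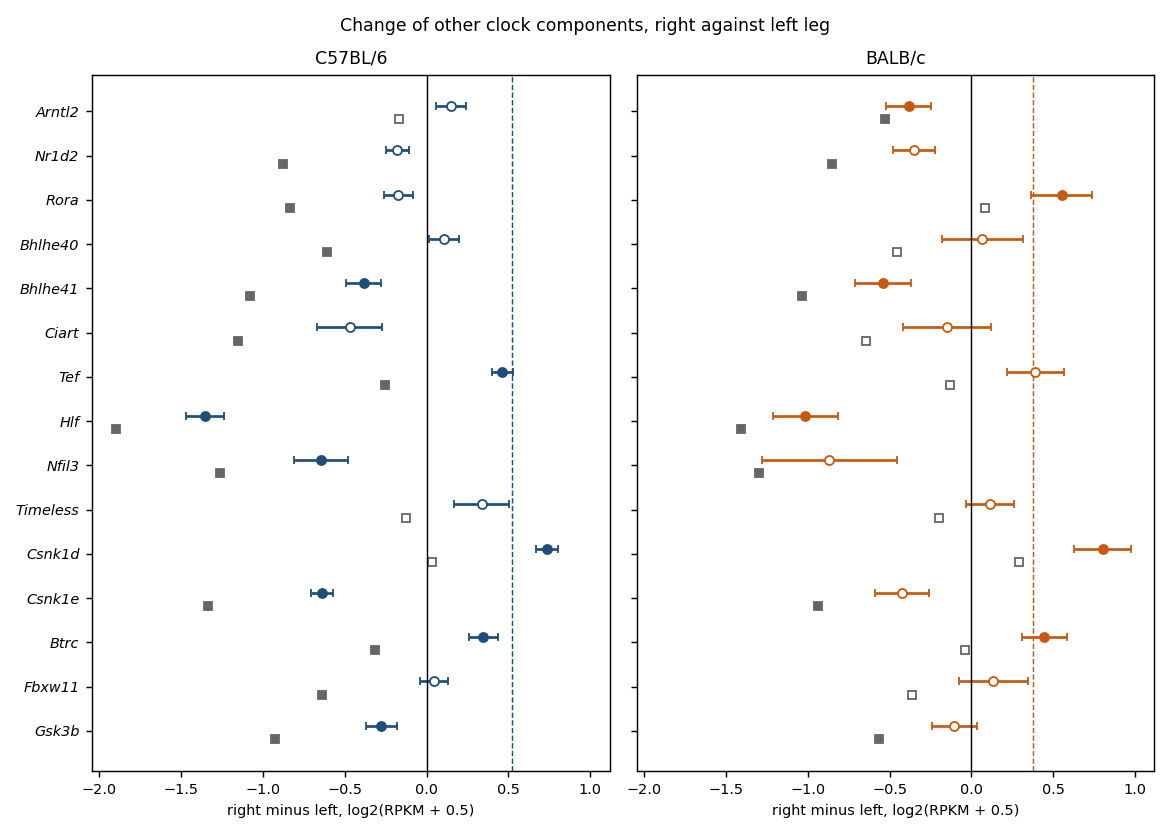
Change of further clock components, right minus left, log2(RPKM + 0.5), in C57BL/6 and BALB/c. Circles are deposited values with SE bars (filled, adjusted p under 0.05), grey squares rescaled values (filled, called) and the dashed line the median tested gene; Hlf has the lowest deposited value in both strains, -1.36 and -1.01.

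Genes that many tissues express under clock control moved in both directions. Of 11 rhythmic output genes, 6 rose and 2 fell in C57BL/6 and 4 rose and 2 fell in BALB/c, with median changes of 0.48 and 0.22 against 0.52 and 0.38 over all tested genes. After rescaling 4 rose and 4 fell in C57BL/6 and 3 rose and 4 fell in BALB/c. As deposited, 63.6% of all tested genes were higher and 8.56% lower in C57BL/6, and 42.5% and 7.67% in BALB/c. Rescaling changed these shares to 28.2% and 26.4%, and 21.8% and 19%. Cdkn1a, which encodes the cell cycle inhibitor p21, went from 4.52 ± 0.738 to 638 ± 123 RPKM in C57BL/6 (6.98 ± 0.16, adjusted p = 3.16e-07) and from 10.3 ± 4.02 to 567 ± 103 in BALB/c (5.76 ± 0.26, adjusted p = 8.57e-06). Wee1, a mitotic kinase gene and a textbook E-box target, rose by 1.67 ± 0.10 (adjusted p = 8.61e-06) and 1.33 ± 0.28 (adjusted p = 0.00479). Nampt, the gene of the NAD-producing enzyme that BMAL1 and CLOCK drive, fell by -0.76 ± 0.12 (adjusted p = 0.000950) and -0.83 ± 0.14 (adjusted p = 0.00189). Tspan4 rose by 2.01 and 1.18 (adjusted p = 2.80e-05 and 0.00185), and Por, the cytochrome P450 reductase gene, rose by 1.29 ± 0.11 in C57BL/6 (adjusted p = 3.87e-05) and changed by 0.22 ± 0.30 in BALB/c (adjusted p = 0.564).

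Of 10 genes known as clock targets in muscle, 4 rose and 2 fell in C57BL/6 and 3 rose and 5 fell in BALB/c, with medians of 0.24 and -0.53, and after rescaling 2 rose and 4 fell, and 2 rose and 5 fell. The medians over all tested genes were 0.52 and 0.38. Of all tested genes 63.6% were higher and 8.56% lower in C57BL/6, and 42.5% and 7.67% in BALB/c. After rescaling these shares were 28.2% and 26.4%, and 21.8% and 19%. Myod1, the myogenic factor gene, rose by 3.95 ± 0.24 (adjusted p = 8.80e-06) and 3.84 ± 0.37 (adjusted p = 0.000142), and Tbc1d1, a regulator of glucose transporter traffic, by 2.66 ± 0.22 (adjusted p = 3.25e-05) and 2.05 ± 0.15 (adjusted p = 4.95e-05). Slc2a4, which encodes the insulin-responsive glucose transporter GLUT4, fell by -1.20 ± 0.14 (adjusted p = 0.000192) and -1.32 ± 0.13 (adjusted p = 0.000165). Tcap, a sarcomere gene, rose by 0.89 ± 0.12 (adjusted p = 0.000361) and 1.25 ± 0.28 (adjusted p = 0.00694) as deposited, with 0.17 and 0.72 after rescaling, neither called. Pdk4, which restrains glucose oxidation, rose by 1.41 ± 0.39 in C57BL/6 as deposited (adjusted p = 0.0127, and 0.0519 without right library 2), was 0.69 after rescaling (adjusted p = 0.162), and changed by 0.05 ± 0.56 in BALB/c (adjusted p = 0.945).

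Clock genes also answer to cAMP, activity and glucocorticoids, so lists of such genes were counted. Of 11 immediate early genes, 6 rose and 1 fell in C57BL/6 and 4 rose and 2 fell in BALB/c, with medians of 0.53 and 0.30, and after rescaling 3 rose and 2 fell, and 2 rose and 2 fell. All tested genes had medians of 0.52 and 0.38, with 63.6% higher and 8.56% lower in C57BL/6, and 42.5% and 7.67% in BALB/c. Rescaled, 28.2% of all tested genes were higher and 26.4% lower in C57BL/6, and 21.8% and 19% in BALB/c. Sik1 rose by 3.69 ± 0.22 and 3.28 ± 0.54 (adjusted p = 7.56e-06 and 0.00156) and Junb by 3.29 ± 0.31 and 2.96 ± 0.41 (adjusted p = 6.16e-05 and 0.000671), while Nr4a1, an orphan receptor gene induced by muscle activity, fell by -2.83 ± 0.31 and -2.91 ± 0.41 (adjusted p = 0.000130 and 0.000693). Atf3 rose by 3.69 ± 0.31 and 1.62 ± 0.51 (adjusted p = 3.60e-05 and 0.0292). Ier2 rose by 1.28 ± 0.32 and 0.96 ± 0.33 (adjusted p = 0.00796 and 0.0432), and Egr1 by 2.06 ± 0.77 in C57BL/6 (adjusted p = 0.0428), with 1.04 ± 0.56 in BALB/c (adjusted p = 0.158). After rescaling the calls of Ier2 (0.62 and 0.45, adjusted p = 0.125 and 0.276), of Egr1 in C57BL/6 (1.43, adjusted p = 0.143) and of Atf3 in BALB/c (1.17, adjusted p = 0.102) were lost. Of the deposited calls, those of Atf3 and Ier2 in BALB/c were also lost without left library 1 or 3 or right library 2 or 3, and that of Egr1 without C57BL/6 left library 1 or 3 or right library 2 or 3. Of 8 glucocorticoid-responsive genes, 2 rose and 2 fell in C57BL/6 and 3 rose and 3 fell in BALB/c, with medians of -0.26 and -0.05. After rescaling 1 rose and 6 fell in C57BL/6 and 2 rose and 4 fell in BALB/c. The medians and shares of all tested genes given beside the immediate early genes apply to this list too. Mt2, a metallothionein gene, rose by 5.54 ± 0.41 and 3.92 ± 0.45 (adjusted p = 1.88e-05 and 0.000278), and Klf9 fell by -0.59 ± 0.12 and -1.001 ± 0.16 (adjusted p = 0.00357 and 0.00141). The receptor gene Nr3c1 fell by -0.32 ± 0.10 and -0.44 ± 0.16 (adjusted p = 0.0215 and 0.0492). Sgk1, a kinase gene, rose by 0.68 ± 0.19 and 1.33 ± 0.26 (adjusted p = 0.0150 and 0.00385), but its C57BL/6 value was -0.04 after rescaling. Zbtb16 fell by -1.29 ± 0.34 and Tsc22d3 rose by 0.68 ± 0.24 in BALB/c (adjusted p = 0.0145 and 0.0414), with -0.43 and 0.19 in C57BL/6 (adjusted p = 0.174 and 0.391). After rescaling Tsc22d3 was called lower in C57BL/6, at -0.53 (adjusted p = 0.0476), and was 0.16 in BALB/c (adjusted p = 0.581). Leaving out 1 library at a time lost the call of Nr3c1 in 4 of 6 C57BL/6 fits (kept without left library 3 or right library 3) and 5 of 6 BALB/c fits (kept without right library 1), and of Sgk1 in C57BL/6 without left library 1 or 2 or right library 3. In BALB/c it lost that of Tsc22d3 in 5 of 6 (kept without right library 2) and that of Zbtb16 without right library 1 or 2.

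Genes whose pattern over the 12 libraries was nearest to a member were ranked by the mean absolute difference of centred log2 values, among 10217 genes. Nearest to Arntl were Psmd1, a proteasome subunit gene (0.108), and B3galnt2 (0.128), against a median of 0.359 over the genes compared. Nearest to Dbp were its overlapping neighbour Sphk2 (0.0518), 4833420G17Rik (0.0566) and Gsk3a (0.0757), against a median of 0.278. Nearest to Nr1d1 were Prob1 (0.0851), Axin1 (0.0897) and Ipo9 (0.0933), against a median of 0.313.

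Markers of some cell types differed between the legs, and in bulk RNA fewer cells of a type and less RNA per cell cannot be told apart. For comparison, 63.6% of all tested genes were higher and 8.56% lower in C57BL/6, and 42.5% and 7.67% in BALB/c. The rescaled shares were 28.2% and 26.4%, and 21.8% and 19%. The summed RPKM of 9 fast myofibre genes was 156470 to 169910 in the C57BL/6 left and 77049 to 82468 in the right libraries, and 107170 to 148270 against 64191 to 89491 in BALB/c. Of these 9 genes, 8 fell and Des, the desmin gene, rose in C57BL/6 as deposited. In BALB/c 2 fell, Des rose and 6 were not called. After rescaling 1 rose and 8 fell in C57BL/6, and in BALB/c 2 fell and none rose, so the Des call was lost there. The 12 macrophage markers summed to 9.91 to 13.3 RPKM against 92.7 to 185 in C57BL/6 and to 63.4 to 107 against 188 to 303 in BALB/c. Adgre1, Itgam, Fcgr1 and Ptprc passed the C57BL/6 filter only through the right legs. At a filter of 1 RPKM, 7 of 7 tested markers rose in C57BL/6 and 8 of 8 in BALB/c, where 71.1% and 51.5% of all genes tested were higher. That filter also takes the mean over both legs, so a marker can pass it through its right legs alone. These counts are therefore only a description. Of 8 fibroblast markers 8 rose in C57BL/6, and 4 rose and 1 fell in BALB/c, with sums of 79.2 to 137 against 215 to 407 and of 442 to 695 against 510 to 660; after rescaling 5 rose in C57BL/6, and none rose and 1 fell in BALB/c. Of 6 endothelial markers none rose and 2 and 1 fell as deposited, and 6 fell in either strain after rescaling. Schwann cell markers summed to 1.998 to 122 RPKM in the C57BL/6 left libraries and 9.41 to 47.8 in the right libraries, so they varied widely within a leg. None was called in C57BL/6. In BALB/c 1 rose and 2 fell as deposited, and none rose and 3 fell after rescaling. No adipocyte marker was called in either strain. Whether these shifts have a part in the changes of the clock genes was not tested.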

How the data were processed

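The authors deposited 1 table of RPKM values per strain. The HOMER command, per the file headers, counted exon reads on either strand with an mm9 annotation, condensed each gene to 1 transcript and asked for RPKM, although the column names say FPKM. HISAT2, HOMER, DESeq2, GRCm38 and mm10 are named in the submitters' processing notes, without versions or roles. The sources used here do not give the build of the alignment, so gene positions are printed in mm9 as listed. Columns were matched to samples through the codes in the labels. Groups are strain and leg, 3 libraries each, and the library numbers are those of the sample titles.

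From the deposited RPKM, log2(RPKM + 0.5) was computed, and genes averaging 0.1 RPKM or more in a table were tested (limma 3.58.1, R 4.3.3; linear fit, moderated with a trend, two-sided, Benjamini-Hochberg over all tested genes). The tables were normalized separately, so each strain was tested within its table. For the strain difference, the C57BL/6 change was subtracted from the BALB/c change within 1 model of 12 libraries. All 10 members passed the filter in both tables. RPKM multiplied by length and scaling total gave whole reads within 0.1 read for 99.9% to 100% of judged values, with 14826934 to 17323385 reads in listed genes. A floor of 3 reads is 0.0374 to 0.0398 RPKM for Npas2. The fits were tested on simulated data in which a small set of genes changed, some up and some down, without a common shift. That test does not cover the common shift seen in these libraries.

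The members and lists were chosen with earlier results of these data known. Named are all members, all further components that a strain called, up to 6 called genes per other list by size of change, genes overlapping a member, and the 3 nearest patterns to Arntl, Dbp and Nr1d1. Nr1d2 was named outside this rule, after its values were seen. A few results under this rule are not reported here. Alternatives were pseudocounts of 0.1 and 1, no filter, a filter of 1 RPKM, median-of-ratios rescaling, a replicate block, limma-voom on recovered reads, and each library left out.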

Additional observations from a re-analysis of the deposited data

Results flagged for a closer look

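The change of Alas1, the gene of the first enzyme of heme synthesis and a rhythmic output gene, differed between the strains by the test of that difference. It was 0.48 ± 0.07 in C57BL/6 and -0.90 ± 0.15 in BALB/c, a difference of -1.38 ± 0.16 (limma, adjusted p = 0.00225). After rescaling Alas1 was called lower in C57BL/6, at -0.23 (limma, adjusted p = 0.0203), and the difference was -1.18 (adjusted p = 0.00193). Hk2, the hexokinase gene listed among muscle clock targets, changed by -0.32 ± 0.13 in C57BL/6 and -1.22 ± 0.15 in BALB/c, a difference of -0.895 ± 0.200 (limma, adjusted p = 0.0254). After rescaling Hk2 was called lower in C57BL/6, at -1.03 (limma, adjusted p = 0.000421), and the difference was -0.698 (adjusted p = 0.0362). The Hk2 difference was not called without a filter (adjusted p = 0.0655), with the replicate block (0.0581), or without C57BL/6 left library 1, 2 or 3, C57BL/6 right library 2 or 3, or BALB/c left library 2 (0.0514 to 0.0729). No member of the clock set met this criterion.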

How the results depend on the processing

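Depth limits Npas2, and the spread of 3 libraries per group limits Per1. Rescaling turned the direction of 6 of 10 members in C57BL/6 and 1 of 10 in BALB/c. Median-of-ratios rescaling gave 4106 genes higher and 3840 lower in C57BL/6 (9258 and 1246 as deposited), with 2 members higher and 2 lower, and 3225 and 2818 in BALB/c (6302 and 1136), with 0 and 1 members. It turned these C57BL/6 values: Arntl -0.11, Per1 -0.59, Per3 -0.48, Cry2 -0.13, Dbp -0.10, Nr1d1 -0.091, Tef -0.25, Btrc -0.31, Arntl2 -0.17, Alas1 -0.23, Sgk1 -0.038, Tsc22d3 -0.53, Sphk2 -0.10 and D930015M05Rik -0.44. In BALB/c it turned Per3 -0.45, Tef -0.13, Btrc -0.037, Por -0.29 and Pdk4 -0.47, and of the strain differences Clock 0.060 and Per3 0.026. Voom turned Per3 -0.069 and Pdk4 -0.051 in BALB/c and the strain difference of Dbp, -0.026. BALB/c members higher numbered 3 without a filter and 3 with voom, against 5. For the strain difference, 525 genes were higher after rescaling and 151 with voom, against 249, and 317 lower without a filter, against 613. The cause of these changes was not tested.

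With each library left out, members higher ranged from 6 to 7 in C57BL/6 and 3 to 6 in BALB/c, none lower, and members differing between strains stayed at 0. Genes higher ranged from 8577 to 9149 and lower from 1090 to 1182 in C57BL/6, from 5069 to 6770 and 855 to 1083 in BALB/c, and from 80 to 505 and 219 to 1025 for the strain difference. Values that changed sign ranged from -0.37 to 0.52 for Per1 and -0.10 to 0.22 for D930015M05Rik in C57BL/6. In BALB/c they ranged from -0.43 to 0.28 for Per1, -0.11 to 0.25 for Per3, -0.36 to 0.76 for Pdk4, -0.18 to 0.15 for Thra and -0.50 to 0.14 for D930015M05Rik. Among strain differences they ranged from -0.25 to 0.0090 for Npas2, -0.63 to 0.26 for Per1, -0.30 to 0.064 for Per3, -0.32 to 0.0065 for Cry1, -0.021 to 0.39 for Cry2, -0.055 to 0.13 for Dbp and -0.14 to 0.41 for Nr1d1. The right over left fold of Dbp to Sphk2 in C57BL/6 ranged from 0.988 to 1.03.

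No label states whether same-numbered legs came from the same mouse, so the main fits took no pairs. The column codes carry the same numbers in both legs of each strain, so such a pairing is possible. Deviations of same-numbered legs correlated at 0.182, 0.104 and 0.00729 in C57BL/6 and 0.0105, 0.0664 and 0.239 in BALB/c. Not every library correlated best with its own number. With 3 libraries per leg these values cannot decide whether the legs are paired. With the replicate block 7 members were higher in C57BL/6 (adding Arntl) and 4 in BALB/c (without Nr1d1), with 9144 and 5782 genes higher, 1217 and 1058 lower, and 234 and 520 for the strain difference.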
